A study of Homo sapiens with 6 samples.

Results

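The spliceosome proteins described here are 46 genes among 38637 in the deposited table. Their products belong to the small nuclear ribonucleoproteins (snRNPs) and the catalytic machinery around them. These members were chosen by name for what their proteins do, but with earlier results of these data known. They fall into 7 subgroups: the Sm ring with 7 genes, the U1 snRNP with 6, the U5 snRNP with 8, the U4/U6 and tri-snRNP proteins with 8, the LSm ring with 7, the Prp19 complex and its partners with 6, and the DEAH-box helicases with 4. RNA was sequenced from OVCAR8, a human ovarian cancer cell line of wild type genotype, after 72 h in DMSO, the solvent, or in 2 nM pladienolide B, a compound that binds the SF3b complex of the U2 snRNP and blocks its SF3B1 subunit. There were 3 samples in each group, all from poly(A) RNA, with between 22621338 and 26130882 reads on genes per sample. The comparison asks what happens to the RNA of splicing proteins other than the inhibited complex when SF3B1 is blocked.

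Introns are removed by the spliceosome, which is put together anew on each one. The U1 snRNP reads the 5′ splice site, the U2 snRNP with SF3b reads the branch point, and the U4/U6.U5 tri-snRNP then joins and is rearranged by helicases into the active enzyme, which the Prp19 complex stabilises. A ring of Sm proteins holds the U1, U2, U4 and U5 RNAs, a ring of LSm proteins holds the end of U6 RNA, and DEAH-box helicases drive the late steps, from activation to the release of the mRNA and the intron.

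All 46 members passed the filter on low values, which kept genes with a value of at least 10 in at least 3 samples. The values are adjusted reads, that is, the reads on a gene after scaling to a common library size, and fold changes are on the log2(value + 1) scale. With limma and a Benjamini-Hochberg adjusted p below 0.05, 24 of the 46 members were called, or 52.2%, beside 47.5% of all 16208 genes tested. Higher in pladienolide B were 17 members, 37.0% of them beside 22.3% of all genes, and lower were 7, 15.2% beside 25.2%. The changes were mostly small. A size of at least 0.5 on the log2 scale was reached by 3 of the called members, PRPF3, PRPF4 and LSM7, while 14.7% of all genes were called at that size. The median log2 fold change was 0.06 over the members and -0.004 over all genes, and the members' median was 0.032 without DMSO replicate 1 and 0.107 without DMSO replicate 2. In 25 members the values of the DMSO and pladienolide B samples did not overlap, beside 55.2% of all genes. The same 24 members were called by edgeR and by DESeq2 on the reads recovered from the table, but limma without a variance trend called 18, of which 11 were higher and 7 lower. In bulk RNA, fewer cells that carry a transcript and less of it per cell cannot be told apart.

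**Figure D1:**
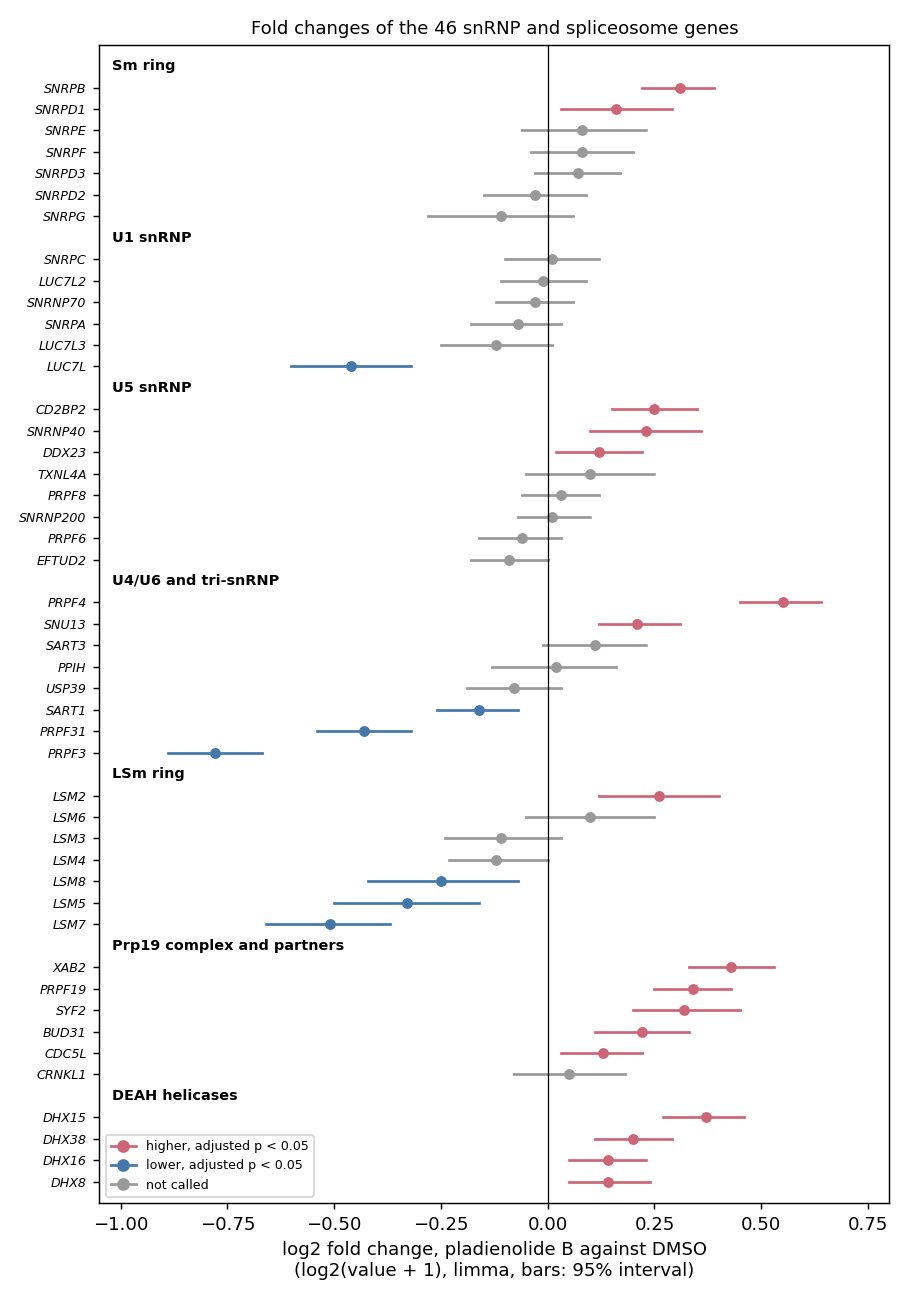
Log2 fold change (x axis, log2(value + 1), pladienolide B against DMSO) of each of the 46 members, grouped by subgroup, with its 95% interval from limma. Red points are called higher, blue points lower and grey points are not called. PRPF3 lies lowest at -0.78 and PRPF4 highest at 0.55, both in the tri-snRNP subgroup, and all points of the DEAH-box helicases lie above 0.

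The libraries were alike, with correlations of log2 values of at least 0.9923 between samples of a group, but DMSO replicate 2 stood apart. Its counts differed from those of DMSO replicates 1 and 3 by a chi-square of 7.28 and 7.18 per degree of freedom, while replicates 1 and 3 differed by 2. DMSO replicate 2 had the highest value of its group in 31 of the 46 members, and over all tested protein-coding genes with a mean of at least 100 it lay above the other DMSO samples by a median of 0.15 on the log2 scale for transcripts under 1000 bases, and by -0.02 for those of 4000 bases or more. The members with transcripts under 1000 bases are SNRPD2, SNRPF, SNRPG, SNRPC, PPIH, LSM2 and LSM7, and where a call turns on this sample it is given without it as well. Among markers of epithelial and ovarian carcinoma cells, EPCAM, KRT7, KRT8, KRT18 and PAX8 had at least 431 adjusted reads in every sample. KRT19, CDH1, WT1, MUC16, CLDN3 and CLDN4 had 60.3 or less. Of these low markers, CLDN4 and CDH1 were called higher, at 1.16 and 0.67, and the rest were not called. KRT7 fell to 64.8% of DMSO, and KRT8 and KRT18 rose by 0.27 and 0.29 on the log2 scale. The leukocyte markers PTPRC, CD3E, MS4A1 and LYZ had at most 2.07, and CD14 had at most 19.7 and was not called. CD68 was called higher at 0.41, with controls between 1091 and 1246 and treated samples between 1477 and 1590. The fibroblast marker COL1A1 gave 5602 to 6902 and was called lower at -0.21, and PDGFRB gave 181 to 267 and was called lower at -0.34. COL1A2 had at most 81.5, LUM at most 33.1, COL3A1 14.4 or less and DCN 2.07 or less. Of the endothelial markers, PECAM1 had at most 42.1, VWF 45.1, KDR 24.1 and CDH5 4.24, and none was called. The part of these shifts in the members' values was not tested.

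The intron ends of members that moved in opposite directions are shown first, because SF3b, which pladienolide B binds, holds the branch point in that stretch. PRPF3 and PRPF4 encode partners in the U4/U6 snRNP, and PRPF3 fell while PRPF4 rose. The lines give the last 44 bases of each intron of these 2 genes that has the 5 letters CTNAC between 44 and 18 bases before the exon, read on the transcribed strand from GRCh38, with CTNAC and the final AG in capitals. CTNAC is a short form of the branch point consensus, and a match to it is not a mapped branch point.
PRPF3 intron 1, chr1:150321593-150324894, + strand: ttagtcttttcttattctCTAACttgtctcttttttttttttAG
PRPF3 intron 2, chr1:150325088-150325750, + strand: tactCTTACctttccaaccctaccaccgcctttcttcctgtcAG
PRPF3 intron 9, chr1:150340478-150343308, + strand: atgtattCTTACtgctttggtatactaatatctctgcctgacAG
PRPF3 intron 11, chr1:150344262-150344433, + strand: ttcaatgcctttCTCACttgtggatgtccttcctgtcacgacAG
PRPF4 intron 12, chr9:113290808-113290897, + strand: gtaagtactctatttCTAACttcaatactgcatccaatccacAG
PRPF3 thus had the letters in 4 of its 15 introns and PRPF4 in 1 of 13. Over all tested protein-coding genes, 17.5% of 148310 introns held them in that window, and over the members 22.6% of 513.

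LSM7, which fell, and LSM2, which rose, are subunits of one ring, and none of their introns held CTNAC in the window. The ends of the 3 introns of LSM7, which are rich in G and C, are printed beside those of 2 of the 4 introns of LSM2, with the final AG in capitals.
LSM7 intron 1, chr19:2328478-2328560, - strand: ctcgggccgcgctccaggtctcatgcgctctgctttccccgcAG
LSM7 intron 2, chr19:2324197-2328386, - strand: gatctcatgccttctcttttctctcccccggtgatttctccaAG
LSM7 intron 3, chr19:2321823-2324124, - strand: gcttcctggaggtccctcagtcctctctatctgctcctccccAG
LSM2 intron 1, chr6:31806143-31806754, - strand: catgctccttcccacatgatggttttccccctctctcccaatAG
LSM2 intron 3, chr6:31798050-31798476, - strand: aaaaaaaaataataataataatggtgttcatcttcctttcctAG
The last 100 bases of the LSM7 introns, or the whole intron where it is shorter, were 67.5% G or C on average, those of LSM2 43.8%, and the median over tested protein-coding genes was 43.0%. Pyrimidines made up 79.6% of the bases 3 to 20 before the exon in LSM7 and 84.7% in LSM2, with a median of 77.0% over coding genes.

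The genes of the Sm ring were little changed, with 2 of 7 called, both higher. The share called higher was 28.6%, beside 22.3% of all genes, and 25.2% of all genes were called lower. The median log2 fold change was 0.08, or 0.13 without DMSO replicate 2 and 0.05 without DMSO replicate 1 or replicate 3. SNRPB, which encodes SmB, gave 7670, 8098 and 7617 adjusted reads in DMSO replicates 1 to 3 and 9806, 9606 and 9515 in pladienolide B. Every treated sample lay above every control, and SNRPB rose to 124% of DMSO, a log2 fold change of 0.31 with an SE of 0.04 and an adjusted p of 8e-06 by limma. SNRPG, the ring gene with the lowest fold change, gave 1379, 1756 and 1349 in DMSO and 1459, 1396 and 1275 in pladienolide B. Its groups overlapped, with DMSO replicate 2 the highest of the 6 values, and its log2 fold change of -0.11 had a 95% interval from -0.28 to 0.06. SNRPD1 was called at 0.16 with an adjusted p of 0.042 by limma, its groups overlapped, and it stayed called under 9 of the 16 other ways of testing. SNRPD2, SNRPD3, SNRPE and SNRPF were not called, at -0.03, 0.07, 0.08 and 0.08. Without DMSO replicate 2, SNRPD3, SNRPE and SNRPF were called higher as well, so the count of Sm genes depends on that sample.

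The genes of the U1 snRNP gave 1 call among 6, and it was lower, or 16.7% beside 25.2% of all genes. None was called higher, beside 22.3% of all genes. LUC7L encodes one of 3 human relatives of the yeast U1 protein Luc7, which act in the choice of 5′ splice sites. Its values were 1477, 1682 and 1466 in DMSO and 1044, 1206 and 1110 in pladienolide B, so that no treated sample reached the lowest control. LUC7L fell to 72.6% of DMSO, with a log2 fold change of -0.46, an SE of 0.07 and an adjusted p of 2.1e-05 by limma. The related LUC7L2 and LUC7L3 were not called, at -0.01 with an interval from -0.11 to 0.09 and at -0.12 with an interval from -0.25 to 0.01; the difference between the relatives was not tested. Per kilobase of transcript, the level of LUC7L was 0.92 ± 0.038 times that of LUC7L2 in DMSO and 0.68 ± 0.054 times in pladienolide B (SD, n = 3). LUC7L2 shares its position with the readthrough gene FMC1-LUC7L2, which was listed with a DMSO mean of 2740 and a log2 fold change of -0.03, so how their reads were divided is uncertain.

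The genes of the 3 core U1 proteins were not called. SNRPC, which encodes U1-C and had the largest fold change of the subgroup on the positive side, gave 3635, 4258 and 3846 in DMSO and 3958, 3981 and 3863 in pladienolide B. The treated values fell inside the range of the controls, and the log2 fold change of 0.01 had an interval from -0.10 to 0.12. SNRNP70, the U1-70K protein that binds the first stem of U1 RNA, was at -0.03 with an interval from -0.12 to 0.06. SNRPA, the U1-A protein, was at -0.07 with an interval from -0.18 to 0.03. The intervals exclude changes of the size seen for LUC7L.

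The genes of the large proteins at the heart of the U5 snRNP did not pass the test. PRPF8, the scaffold of the catalytic centre, was at 102% of DMSO with an interval from -0.06 to 0.12 on the log2 scale. SNRNP200, the helicase that unwinds U4 from U6, was at 101% with an interval from -0.07 to 0.10. EFTUD2, the GTPase of U5, gave 6905, 6740 and 6725 in DMSO and 6403, 6097 and 6633 in pladienolide B. All its treated values lay below all controls, but the log2 fold change of -0.09 had an adjusted p of 0.083 by limma, and it was called under 2 of the 16 other ways, without DMSO replicate 2 and without pladienolide B replicate 3. PRPF6, which bridges U5 and U4/U6, and TXNL4A, a small thioredoxin-fold subunit, were not called at -0.06 and 0.10.

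Of the 8 U5 genes, 3 were called higher, namely CD2BP2, SNRNP40 and DDX23, or 37.5% beside 22.3% of all genes. None was called lower, beside 25.2% of all genes. CD2BP2 encodes a U5 protein that is absent from the finished tri-snRNP. It gave 1868, 1997 and 1930 in DMSO and 2296, 2373 and 2244 in pladienolide B, and the groups were well apart. Its level rose to 119% of DMSO, at 0.25 with an SE of 0.05 and an adjusted p of 0.00029 by limma. SNRNP40, a WD-repeat subunit, rose by 0.23, and DDX23, the helicase that displaces U1 from the 5′ splice site, rose by 0.12. The DDX23 call had an adjusted p of 0.042 by limma and was kept under 9 of the 16 other ways of testing.

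**Figure D2:**
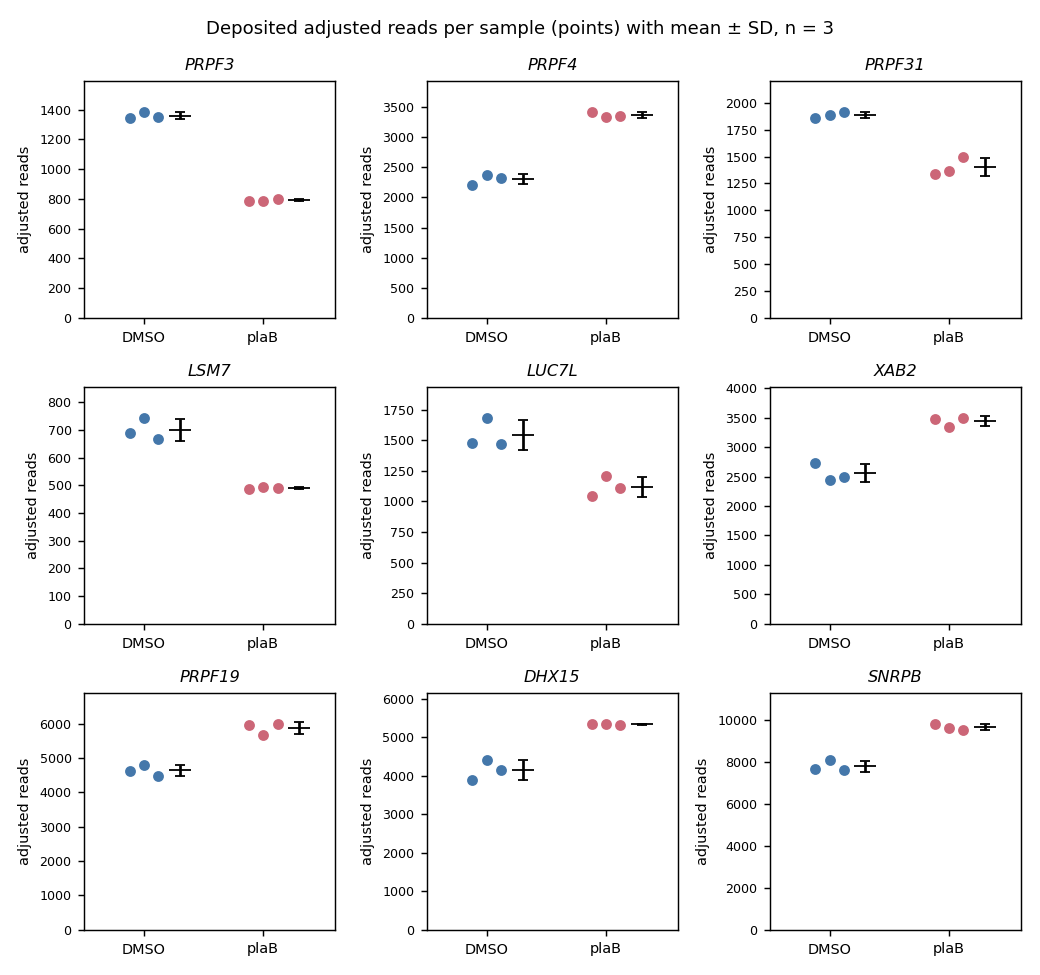
Adjusted reads (y axis, from 0) of 9 members in each sample of DMSO (blue) and pladienolide B (red), with the mean ± SD beside the points (n = 3). The treated values of PRPF3, PRPF31, LSM7 and LUC7L lie below all controls, and those of PRPF4, XAB2, PRPF19, DHX15 and SNRPB above them.

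The genes of the U4/U6 and tri-snRNP proteins held the extremes in both directions. Of 8 genes, 2 were called higher and 3 lower, or 25% and 37.5% beside 22.3% and 25.2% of all genes. The median was -0.03, or -0.06 without DMSO replicate 1. PRPF3 and PRPF4 encode proteins that bind each other and, with the cyclophilin PPIH, form a complex on U4/U6. PRPF3 gave 1345, 1384 and 1348 in DMSO and 787, 789 and 800 in pladienolide B. The 2 groups were far apart beside a spread of 21.7 reads among the controls, and PRPF3 fell to 58.3% of DMSO, at -0.78 with an SE of 0.05 and an adjusted p of 4.8e-09 by limma. PRPF4 went the other way, with 2208, 2373 and 2324 in DMSO and 3417, 3327 and 3354 in pladienolide B. It rose to 146% of DMSO, at 0.55 with an SE of 0.04 and an adjusted p of 4e-08 by limma. Both calls were kept under all 16 other ways of testing, with fold changes from -0.79 to -0.76 for PRPF3 and from 0.52 to 0.57 for PRPF4. The adjusted p depended on the method: by limma without a variance trend it was 0.00071 for PRPF3 and 0.0015 for PRPF4.

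The RNA level of one partner relative to the other changed, and protein was not measured. Per kilobase of transcript, the ratio of PRPF4 to PRPF3 was 1.37, 1.43 and 1.44 in the DMSO samples and 3.62, 3.51 and 3.49 in the pladienolide B samples. PPIH, the third protein of the complex, was not called, at 0.02 with an interval from -0.13 to 0.16. The ratio of PRPF4 to PPIH went from 0.94 ± 0.03 to 1.36 ± 0.045 (SD, n = 3).

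PRPF31, which binds the U4 RNA together with SNU13, fell to 74.3% of DMSO. It gave 1858, 1884 and 1914 in DMSO and 1338, 1367 and 1500 in pladienolide B, at -0.43 with an SE of 0.05 and an adjusted p of 4.6e-06 by limma. Its companion SNU13, the protein that first recognises the bent U4 stem and also sits in box C/D snoRNPs, rose by 0.21 with an adjusted p of 0.00076 by limma. The RNAs of these 2 proteins thus also moved in opposite directions. SART1, another tri-snRNP protein, fell by 0.16 with an adjusted p of 0.0074 by limma. USP39, a ubiquitin-protease-like tri-snRNP protein, and SART3, which helps to rejoin U4 with U6 after each round, were not called at -0.08 and 0.11.

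**Figure D3:**
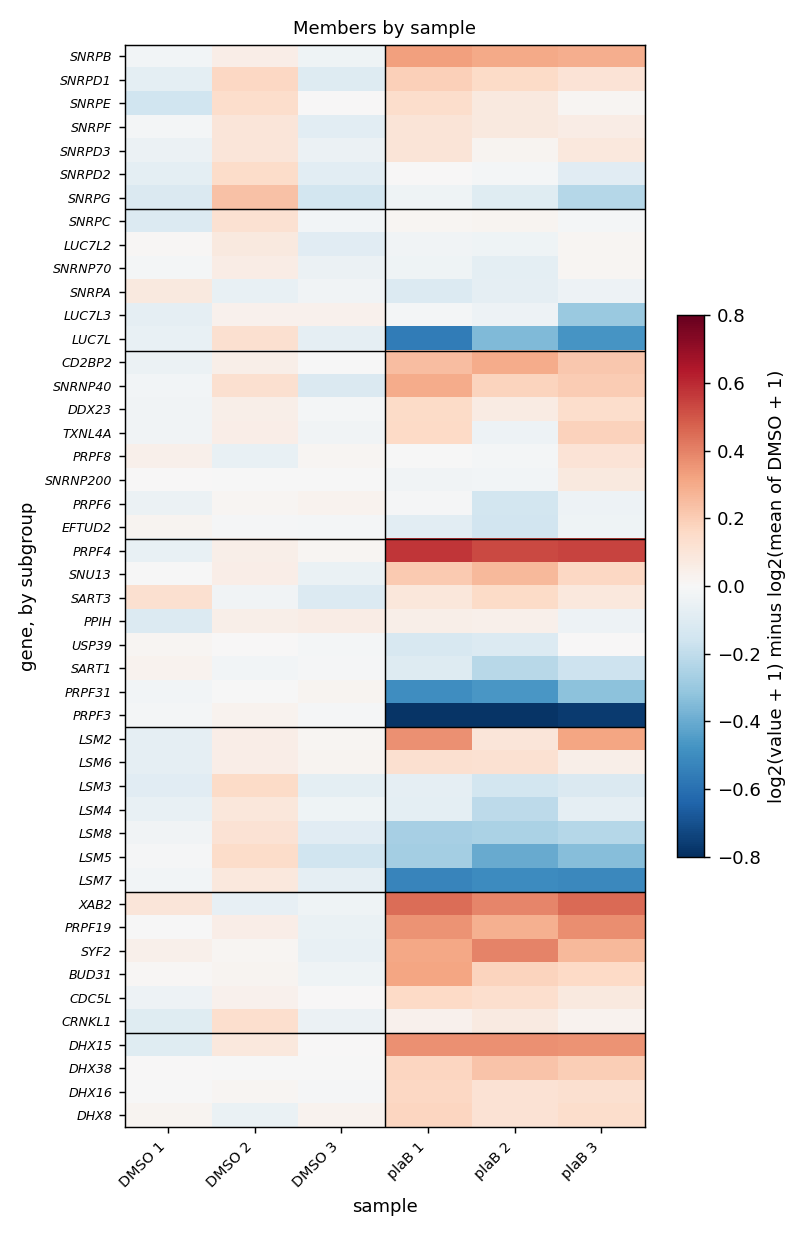
Values of the 46 members (rows, by subgroup with black lines between) in the 6 samples (columns), as log2(value + 1) minus the log2 of the DMSO mean + 1; red is above and blue below the DMSO mean. PRPF3 and LSM7 are the deepest blue rows in pladienolide B and PRPF4 the deepest red, and the DMSO 2 column is reddish in the Sm rows.

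In the LSm ring 3 of 7 genes fell, 1 rose and 3 were not called. The shares were 42.9% lower and 14.3% higher, beside 25.2% and 22.3% of all genes. The median was -0.12, or -0.07 without DMSO replicate 2. LSM7 gave 690, 743 and 666 in DMSO and 485, 494 and 490 in pladienolide B. The treated samples, with an SD of 4.76, all lay below all controls, and LSM7 fell to 70.0% of DMSO, at -0.51 with an SE of 0.07 and an adjusted p of 1.1e-05 by limma. LSM5 fell to 79.2% and LSM8, the subunit that marks the nuclear ring on U6, to 84.1% of DMSO. The LSM8 call had an adjusted p of 0.020 by limma and was lost without DMSO replicate 2 and without pladienolide B replicate 1 or replicate 2. LSM2 gave 1159, 1265 and 1234 in DMSO and 1569, 1307 and 1519 in pladienolide B. Its lowest treated sample, replicate 2, was close to the highest control, and LSM2 rose by 0.26 with an SE of 0.07 and an adjusted p of 0.0035 by limma. The calls of LSM7, LSM5 and LSM2 were kept without DMSO replicate 2. LSM3, LSM4 and LSM6 were not called, at -0.11, -0.12 and 0.10.

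Per kilobase, the ratio of LSM2 to LSM7 was 0.96, 0.97 and 1.06 in the DMSO samples and 1.85, 1.51 and 1.77 in the pladienolide B samples. LSM7 overlaps SPPL2B, a gene on the opposite strand that was called lower at -0.28. Whether reads were counted by strand was not given in the sources used here, and the part of SPPL2B reads in the LSM7 value was not tested.

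Of the genes of the Prp19 complex and its partners, 5 of 6 were called higher and none lower, with a median of 0.27. The share called higher was 83.3%, beside 22.3% of all genes, and 25.2% of all genes were called lower. Among 23 further Prp19-complex and late-step genes, given below, 52.2% were called higher and 17.4% lower. XAB2, a scaffold of the complex that also acts in transcription-coupled repair, gave 2726, 2444 and 2491 in DMSO and 3484, 3345 and 3495 in pladienolide B. XAB2 rose to 135% of DMSO, at 0.43 with an SE of 0.05 and an adjusted p of 1.6e-06 by limma. PRPF19, the ubiquitin ligase that names the complex, rose to 127% and SYF2, a small partner, to 125%. BUD31, a zinc-finger protein near the catalytic RNA, rose by 0.22, and CDC5L, a Myb-like core subunit, by 0.13. CRNKL1, a scaffold with tetratricopeptide-like repeats, had the lowest fold change, with 1017, 1196 and 1051 in DMSO and 1113, 1142 and 1111 in pladienolide B. The CRNKL1 groups overlapped, and its 0.05 had an interval from -0.08 to 0.18. CDC5L was called under 11 of the 16 other ways of testing. Summed per kilobase over the 6 genes, the level was 5735, 5780 and 5528 in DMSO and 7132, 6835 and 6921 in pladienolide B.

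All 4 DEAH-box helicase genes were called higher, beside 22.3% of all genes, with a median of 0.17. DHX15, which takes apart the spent intron complex, gave 3880, 4400 and 4157 in DMSO and 5344, 5338 and 5321 in pladienolide B. The treated values were nearly identical and above all controls, and DHX15 rose to 129% of DMSO, at 0.37 with an SE of 0.05 and an adjusted p of 6.2e-06 by limma. DHX16, the helicase of activation, was the lowest of the 4, with 3077, 3120 and 3067 in DMSO and 3465, 3350 and 3380 in pladienolide B. DHX16 rose to 110%, at 0.14 with an SE of 0.04 and an adjusted p of 0.011 by limma. DHX38, which acts between the catalytic steps, rose to 115%, and DHX8, which releases the mRNA, to 110%. The calls of DHX16 and DHX8 were lost without pladienolide B replicate 1. Their summed level per kilobase was between 3486 and 3645 in DMSO and between 4210 and 4244 in pladienolide B.

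Several of these genes lie over a neighbour that moved the same way. In all, 17 members overlap another gene of the table. BUD31 overlaps PTCD1 on the opposite strand, called higher at 0.22, and DHX16 overlaps C6orf136 on the opposite strand, called higher at 0.31. CDC5L overlaps POLR1C on the same strand, called higher at 0.33. The part of the neighbours' reads in these values was not tested. The deposited values of a gene also do not separate its transcripts, so a change in the use of an exon or the retention of an intron is not seen in them.

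As to levels, 45 of the 46 members lay above the median of 204 adjusted reads per kilobase that the 13725 tested protein-coding genes had in DMSO, and 18 were at or above the 90th percentile. SNRPB was the highest at 7204 ± 244 per kilobase, followed by SNRPD2 at 5094 ± 482 and SNRPC at 4855 ± 393, and the DMSO samples of the latter pair overlapped (SD, n = 3). PRPF8, at 3399 ± 120, was the highest of the U5 proteins. The lowest was LSM8 at 34 ± 2.5, but its annotated transcript is 12384 bases long, so this value depends on the length used. Of the 45 neighbouring pairs in the order of levels, 29 had DMSO samples that overlapped. Proteins that share a ring in equal number differed in RNA per kilobase: in DMSO the highest Sm gene, SNRPB, was 16.5 times the lowest, SNRPD1, and in pladienolide B 18.3 times. This ratio rests on an annotated SNRPD1 transcript of 4858 bases beside 1082 for SNRPB.

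**Figure D4:**
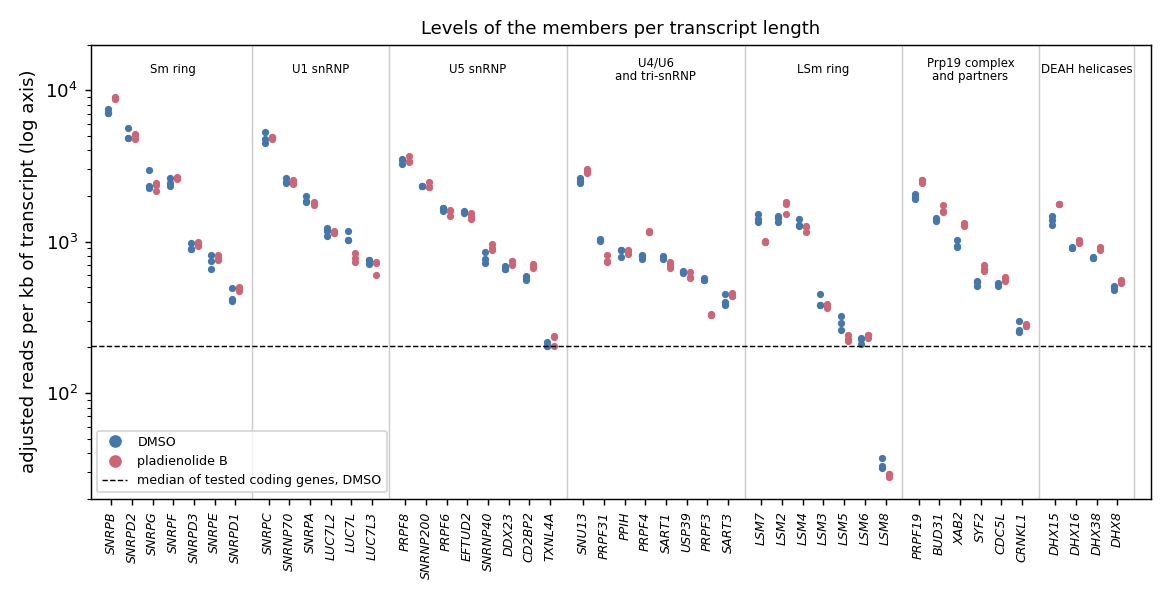
Adjusted reads per kilobase of canonical transcript (y axis, log scale) of each member in the 3 DMSO (blue) and 3 pladienolide B (red) samples, in falling order of the DMSO mean within each subgroup. The dashed line is the median of the tested protein-coding genes in DMSO, 204; all 6 points of LSM8 and the lowest point of TXNL4A, in pladienolide B at 203, lie under it.

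The gene structure of the members is given as a description, and differences between the classes were not tested. By gene, the median intron length ran from 112 bases (CD2BP2) to 6738 (SNU13) among the members called higher. Among those called lower it ran from 131 (SART1) to 2583 (LSM8). Those higher in pladienolide B had a median of 13 introns and a median intron length of 894 bases, those lower had 9 introns and 2071 bases, and those not called 7 introns and 2040 bases. Among all tested protein-coding genes the corresponding medians were 8 introns and 1741 bases for those higher, 10 and 1795 for those lower, and 7 and 1917 for those not called. CTNAC stood in the window of 31.8% of the 66 introns of the lower members and of 23.2% of the 198 introns of the higher ones, beside 17.1% and 17.9% in all tested coding genes called lower and higher. These shares pool introns and rest largely on a few genes. Among the lower members, SART1 had it in 8 of 19 introns and PRPF31 in 6 of 13, but LSM7 and LSM8 in 0 of 3 each. Among the higher ones, PRPF19 had it in 10 of 15 and XAB2 in 9 of 18.

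Promoters of 300 bases, 250 before and 50 after the start of the gene, were at hand from RefSeq for 41 members, the others being SNRPD1, PRPF3, SNU13, SART3 and LSM6. The 7 letters CCGGAAG, which ETS factors are known to bind, stood on either strand in 19 of the 41, or 46.3%, beside 18.4% of 11118 promoters of tested coding genes and 10.7% of all 27305. Of these 19 members, 8 were called higher and 3 lower, the latter being LSM5, LSM8 and SART1. Among all 46 members 37.0% were called higher and 15.2% lower, beside 22.3% and 25.2% of all genes. A link between the letters and the calls was not tested. The letters CACGTG stood in 3 of the 41 promoters, or 7.32% beside 10% of tested coding genes, and TATAAA in 1, that of SNRPC, or 2.44% beside 5.82%. The promoters of 3 members that rose are printed 5′ to 3′ on the gene's strand with CCGGAAG or its reverse complement in capitals, to show where the letters lie. Counted from the start used for each promoter, they begin 41 bases before it in SNRPB, 141 in XAB2 and 187 in DHX38. The deposited position of DHX38 begins at base 72093665 of chromosome 16, inside the printed promoter, so the 187 depends on the start used.
SNRPB promoter, GRCh38.p14, chr20:2470740-2471039, - strand: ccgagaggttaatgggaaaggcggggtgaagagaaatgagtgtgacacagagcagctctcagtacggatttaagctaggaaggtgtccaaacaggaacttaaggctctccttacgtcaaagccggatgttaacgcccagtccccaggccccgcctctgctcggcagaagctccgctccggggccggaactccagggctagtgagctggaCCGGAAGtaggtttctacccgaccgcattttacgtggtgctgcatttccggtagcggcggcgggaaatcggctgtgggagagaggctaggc
XAB2 promoter, GRCh38.p14, chr19:7629496-7629795, - strand: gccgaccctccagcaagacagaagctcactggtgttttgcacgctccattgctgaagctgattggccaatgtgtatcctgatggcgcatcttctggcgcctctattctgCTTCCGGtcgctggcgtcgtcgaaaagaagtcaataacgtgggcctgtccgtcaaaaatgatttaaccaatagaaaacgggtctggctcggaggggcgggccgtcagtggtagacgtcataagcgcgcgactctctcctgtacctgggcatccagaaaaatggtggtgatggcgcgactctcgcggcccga
DHX38 promoter, GRCh38.p14, chr16:72093597-72093896, + strand: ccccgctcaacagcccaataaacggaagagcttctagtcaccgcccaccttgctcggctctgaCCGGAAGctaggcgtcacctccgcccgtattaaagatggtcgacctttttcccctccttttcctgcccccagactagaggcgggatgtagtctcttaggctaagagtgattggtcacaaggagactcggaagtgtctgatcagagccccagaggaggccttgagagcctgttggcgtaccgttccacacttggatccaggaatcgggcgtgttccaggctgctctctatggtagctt
A match to these letters says nothing of whether a factor binds there.

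Other proteins of the same machines are given for comparison, from lists of named genes. Of 17 further U1 and tri-snRNP proteins, 6 were called higher and 5 lower, or 35.3% and 29.4% beside 22.3% and 25.2% of all genes. The largest rise was in SNRNP27, a tri-snRNP protein, at 0.62, and the largest fall in PRPF39, a U1-associated protein, at -0.64. Of 23 further Prp19-complex and late-step proteins, 12 rose and 4 fell, or 52.2% and 17.4%. CDC40, a factor of the second catalytic step, gave 1017, 1185 and 990 in DMSO and 286, 288 and 311 in pladienolide B, a fall to 27.7% that no member approached, while DHX35 rose by 0.59. Of 23 factors that act in the assembly, cap or export of snRNPs and their RNAs, 14 were higher, or 60.9%, and none lower, with a median of 0.27. The largest rise was in TGS1, which modifies the cap of snRNAs, at 0.61. The reads of the near-identical SMN1 and SMN2 in that list cannot be assigned with certainty.

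The U2 snRNP and the proteins that regulate splice sites make up further lists, and differences between lists were not tested. Of 23 SF3a, SF3b and U2 factors, 16 rose and 1 fell, or 69.6% and 4.35% beside 22.3% and 25.2% of all genes, with a median of 0.28. SF3B1, the target of pladienolide B, rose to 124% of DMSO, at 0.31 with an SE of 0.04 and an adjusted p of 7.5e-06 by limma. The U2 protein gene SNRPA1 rose most, by 0.96, and the helicase gene DDX46 was the 1 that fell, to 47.0%. Among 38 SR and hnRNP proteins, 10 rose and 12 fell, or 26.3% and 31.6%, SRSF4 by 0.44 and HNRNPDL to 55.8% of DMSO. Among 10 minor spliceosome genes, 3 rose and 2 fell, or 30% and 20%, with CENATAC at 0.32 and ZRSR2 at -0.28. Among 7 Sm-like paralogs outside the rings, 1 rose and 2 fell, or 14.3% and 28.6%. LSM12 rose by 0.28, and SNRPN, the close relative of SNRPB that shares much of its sequence, was one of the 2 that fell, at -0.54. The ratio of SNRPB to SNRPN per kilobase went from 3.86 ± 0.096 to 6.96 ± 0.45 (SD, n = 3).

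**Figure D5:**
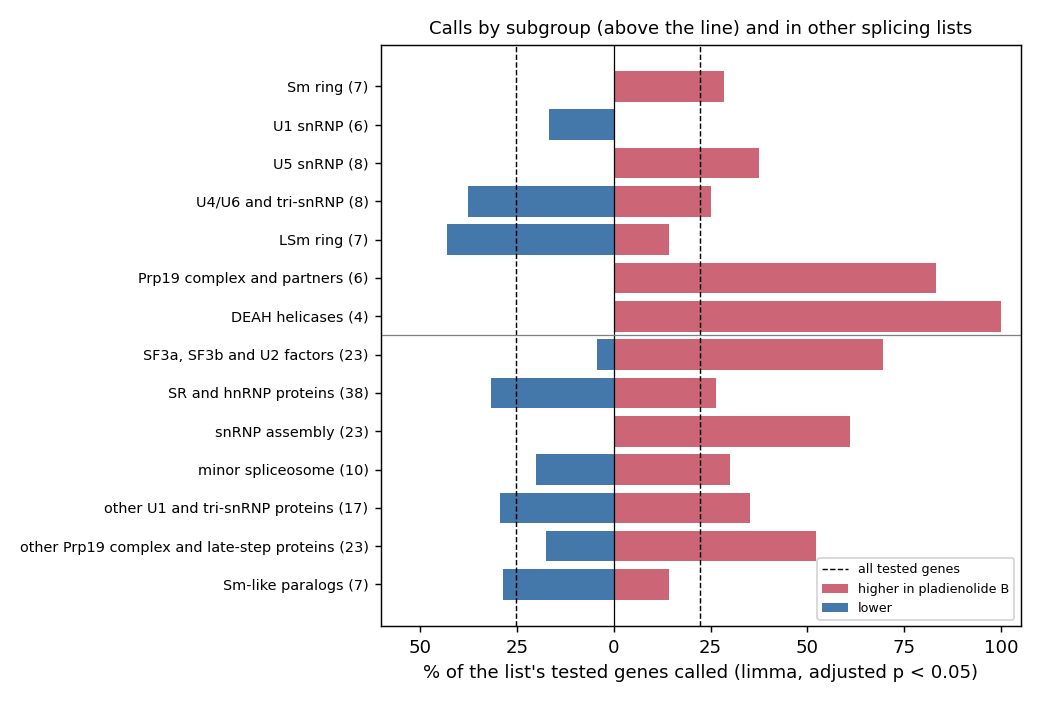
Share of the tested genes of each list (number in brackets) that limma called higher (red, to the right) or lower (blue, to the left), with the 7 subgroups of members above the line and the comparison lists under it. Dashed lines are the shares over all tested genes, 22.3% higher and 25.2% lower; the Prp19 complex with 83.3% and the DEAH-box helicases with 100% reach farthest to the right.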

How the data were processed

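OVCAR8 cells in DMSO or pladienolide B were sequenced as poly(A) RNA, 3 samples per group. The labels do not say whether these came from separate cultures. The p-values thus set a group difference against the spread between these samples, which limma moderates with a variance trend over all tested genes. The submitters' processing notes name HISAT2, HTSeq 0.12.4, DESeq2 and hg19, and the study's methods name hg38; 99.8% of the 35926 symbols shared with RefSeq had a position overlapping GRCh38.p14, and this build was used. Strandedness of the counting was not given in the sources used here. The authors deposited 1 signal value per gene and sample, reads adjusted to a common library size. These have the form of edgeR quantile-adjusted counts with a dispersion of 0.0027: inverting the adjustment gave reads within 0.02 of a whole number, for 100% of values from 10 up (96432 in all) and 99.998% of those under 10. The deposited log2 fold change, p-value and q-value columns hold the authors' own comparison and were not used.

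The test was limma 3.58.1 (R 4.3.3) on log2(value + 1), with a variance trend, two-sided, Benjamini-Hochberg adjusted over the 16208 genes with a value of at least 10 in 3 samples. Also tried were no filter, a filter at 50, pseudocounts of 0.1 and 10, no trend, 2 rescalings, edgeR 4.0.16 and DESeq2 1.42.0 on recovered reads, the replicate number as a block, and leaving out each sample. Scripts were tested on simulated data. Same-numbered samples did not deviate together (correlations -0.019, -0.019 and 0.003). Members and lists were chosen with earlier results of these data known. Values in every sample are given for members called with a log2 fold change of at least 0.5 in size and for the highest and lowest fold change of each subgroup, and of each other list the largest called rise and fall are named; the values per sample of PRPF31 and CDC40 were chosen after they were seen. Lengths and introns are those of GENCODE 44 canonical transcripts. No gene of the table but 1, a pseudogene of SNRPD2 with a mean value under 1, carried a member's symbol as a pseudogene.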

Additional observations from a re-analysis of the deposited data

How the results depend on the processing

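Of the 24 called members, 16 were called under all 16 alternatives, 10 of them higher and 6 lower, and 17 members were called under none. Those lost under 1 or more were SNRPD1, SNRNP40, DDX23, LSM2, LSM8, CDC5L, DHX16 and DHX8. Without a variance trend, 11 members were called higher in place of 17; the cause was not tested. With the replicate block, 23 members and 7355 genes were called in place of 24 and 7699, DDX23 being the member lost; the samples share only a number. With each sample left out in turn, 18 to 27 members were called, 12 to 20 higher and 6 to 8 lower, 6572 to 7838 genes, and a median fold change of the members from 0.032 to 0.107, the highest without DMSO replicate 2. No member named with its values in every sample changed direction in a called value. With 3 samples per group, and with DMSO replicate 2 apart from the others, leaving it out changed the calls of SNRPD3, SNRPE, SNRPF, EFTUD2 and LSM8.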
